A study of Mus musculus with 2 samples.

Results

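The loci described here are microRNA (miRNA) genes that carry a placeholder name, Gm and a number, in the GENCODE M21 mouse annotation. A locus was taken if its identifier in the deposited tables had such a symbol and if it lay neither inside the Sfmbt2 gene on chromosome 2 nor in the imprinted Dlk1-Dio3 interval of chromosome 12. This rule used names and positions only and gave 967 of the 2202 miRNA genes in the tables. Counts came from adrenal glands of 2 male B6CASTF1/J mice, F1 hybrids of the strains C57BL/6J and CAST/EiJ, on postnatal day 4. The labels name no treatment, and both animals belonged to 1 group, so no conditions were compared. Each gave 1 library of small RNA, with a size range under 30 nucleotides per the labels. Per the labels the libraries are biological replicates 1 and 2, from males numbered 3 and 4. A single donor label covers both, and only the different male numbers show that there were 2 animals. Whole glands were used, so cortex, medulla, vessels and any attached tissue entered together.

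MiRNAs are short RNAs that guide Argonaute proteins to messenger RNAs and lower their output. A primary transcript folds into a hairpin, Drosha with its partner Dgcr8 cuts the hairpin out, Dicer removes the loop, and 1 arm is kept as the mature miRNA. Its seed, bases 2 to 8, sets most of the pairing with targets. Genome annotations also hold miRNA loci that were placed by sequence likeness to a known hairpin or to an RNA family, without reads from the locus itself. Repeated sequences, small nucleolar RNAs (snoRNAs, which guide base changes in ribosomal RNA) and GC-rich exons can fold into hairpins too.

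The sequences that the results turn on are given first, from 5′ to 3′. The 57-base loci Gm23935 (chromosome 16, 11144125 to 11144181), Gm24270 (chromosome 9, 56223715 to 56223771) and Gm24245 (chromosome 4, 139338304 to 139338360) were identical, and they are shown with their close relatives Gm24187 and Gm23388. Capitals mark bases that differ from Gm23935, counted from 1 at the 5′ end. The difference in Gm24187 was G11A, and those in Gm23388 were G2T, C16G, G21T and G48T. These sequences are from the GENCODE M21 transcripts on build mm10.
Gm23935: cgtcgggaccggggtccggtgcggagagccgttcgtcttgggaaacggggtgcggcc
Gm24187: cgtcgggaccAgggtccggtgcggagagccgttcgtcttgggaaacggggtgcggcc
Gm23388: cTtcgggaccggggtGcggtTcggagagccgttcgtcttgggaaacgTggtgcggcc

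Next are 2 loci that RefSeq also lists as miRNA genes, Gm23450 (chromosome 7, 3415066 to 3415156) and Gm38670 (chromosome 7, 30552828 to 30552904). Capitals mark the mature miRNAs of RefSeq (GRCm38.p6), which are miR-935 in Gm23450 and both arms of miR-9769 in Gm38670.
Gm23450: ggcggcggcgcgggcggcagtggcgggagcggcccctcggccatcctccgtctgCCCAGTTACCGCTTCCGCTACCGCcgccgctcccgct
Gm38670: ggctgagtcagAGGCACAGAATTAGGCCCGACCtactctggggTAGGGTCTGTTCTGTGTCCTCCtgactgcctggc

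A locus inside a snoRNA gene is shown for contrast. Capitals in Gm49346 (chromosome 16, 23110753 to 23110858) mark the 103 of its 106 bases that lie inside Snora81, a snoRNA of 178 bases.
Gm49346: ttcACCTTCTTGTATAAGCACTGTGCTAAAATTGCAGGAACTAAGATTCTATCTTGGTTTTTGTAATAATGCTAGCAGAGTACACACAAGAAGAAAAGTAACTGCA

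The last set holds the mature miRNAs that recurred most often, whole, inside loci of this class, with their seeds in capitals (RefSeq, GRCm38.p6). Their seeds differ, so they form separate seed groups.
miR-680: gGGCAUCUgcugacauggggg
miR-3471: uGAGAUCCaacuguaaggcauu
miR-3470b: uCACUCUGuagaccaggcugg

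Nearly all of the Gm-named loci had no sense-strand count. Of the 967, 51 (5.27%) had a count in either library and 916 had none in both. A count of 0 allows up to 3 counts, or 0.757 counts per 1000000 miRNA counts (CPM) in replicate 1 and 1.78 CPM in replicate 2. Of the 51 loci, 25 had a count in both libraries and 26 in 1 library only. By library, 41 loci had a count in replicate 1 and 35 in replicate 2. Detection, set at 10 counts in both libraries, was reached by 5 loci, or 0.517%. Among the other 1235 miRNA genes, 706 (57.2%) had a count and 335 (27.1%) were detected. Genes with Mir symbols numbered 1000 and above had a count in 334 of 653 cases (51.1%), and those numbered under 1000 in 365 of 525 (69.5%).

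The summed level was low as well. The 967 loci held 582 of 3961630 sense-strand miRNA counts in replicate 1, or 0.0147% (95% exact Clopper-Pearson interval 0.0135 to 0.0159%). In replicate 2 they held 388 of 1686822, or 0.0230% (0.0208 to 0.0254%). Sequencing reads are not independent molecules, so these intervals and the limits for a count of 0 cover counting error only. The mean was 188.5 ± 58.8 CPM (SD, n = 2), against 5199 ± 1087 CPM for the 653 genes numbered 1000 and above. A few loci carried these counts: the highest held 30.7% of the 970 counts, the first 2 held 55.9% and the first 5 held 79.8%. At the other end, 16 loci had 1 count in all, 23 had 2 to 9 and 12 had 10 or more.

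Position limits of the rule decided little. On chromosome 2, the nearest loci outside Sfmbt2 (10370510 to 10595253) were Gm23963 and Gm24933, both with 0 counts. Just inside it, Gm22072 had 2 counts in replicate 1 and 0 in replicate 2, and Gm24806 had 0. On chromosome 12, Gm25297 and Gm27299 lay just outside the excluded interval with 0 counts. Just inside, Gm23912 had 1 count in replicate 1 and 0 in replicate 2, and Gm24321 had 0. The 48 loci in Sfmbt2 held 4 counts and the 6 in the chromosome 12 interval held 7.

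The highest loci lay in a snoRNA, in a GC-rich 5′ UTR and in coding sequence. Gm49347 (chromosome 18, 35557132 to 35557242), which overlaps the snoRNA gene Snora74a, had 192 and 106 counts in replicates 1 and 2, or 48.5 and 62.8 CPM. This gave a mean of 55.7 ± 10.2 CPM (SD, n = 2), and put it at rank 242 of the 2202 miRNA genes. Gm26117 (chromosome 15, 74563821 to 74563915) had 138 and 106 counts, or 34.8 and 62.8 CPM. It lies in the 5′ UTR of Adgrb1, an adhesion receptor that takes part in the uptake of dying cells, and its GC content was 91.6%. Gm23450, the miR-935 locus in the coding sequence of Cacng8, which encodes an auxiliary subunit of AMPA-type glutamate receptors, had 82 and 29 counts, or 20.7 and 17.2 CPM. Its ratio of replicate 2 over replicate 1 was 0.831 (95% exact interval 0.524 to 1.28), so no difference between the libraries was resolved. Counts were given per locus, so they do not show whether its reads came from the mature miR-935 printed above or from elsewhere in the 91 bases.

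Gm23935 and Gm49346 completed the 5 detected loci. Gm23935 had 37 and 41 counts, or 9.34 and 24.3 CPM. It lies on the strand opposite to an intron of Zc3h7a, which encodes a zinc finger protein. Gm49346 had 15 and 28 counts, or 3.79 and 16.6 CPM, and lies in Snora81 within the translation factor gene Eif4a2. In the plot of counts for named loci, only these 5 had both libraries at or above 10 counts.

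**Figure D1:**
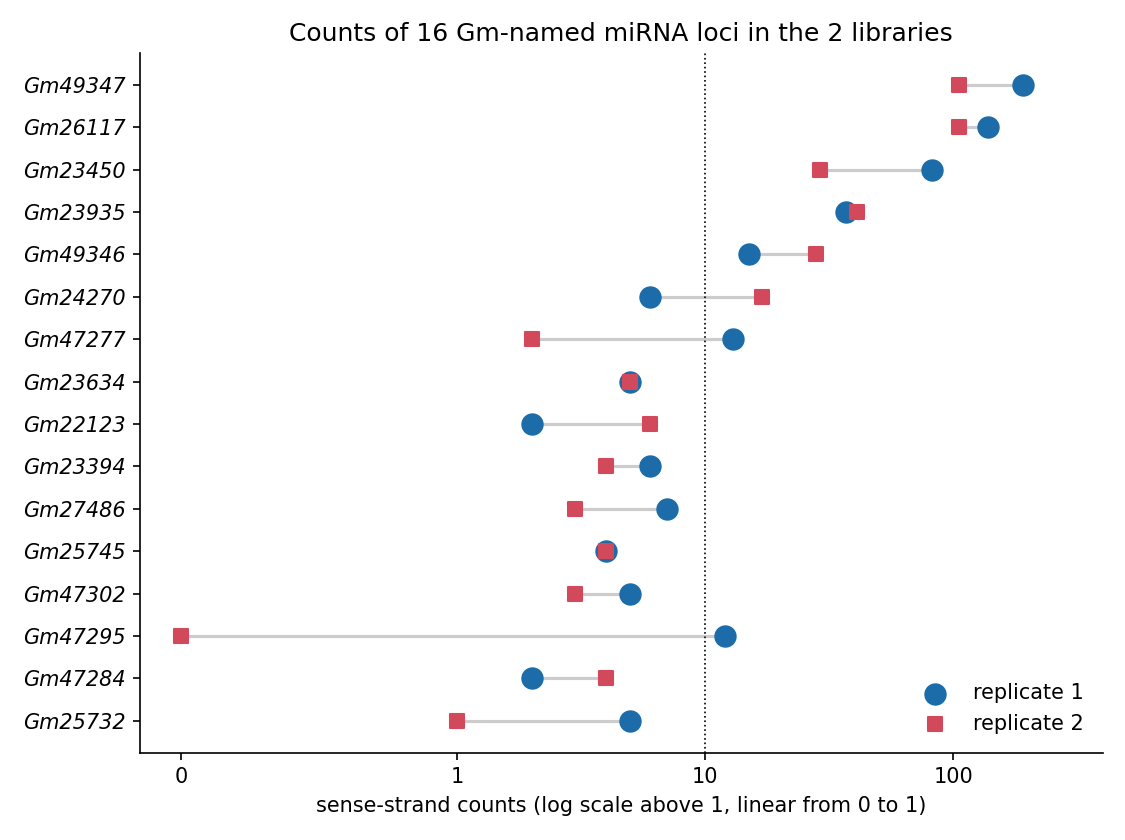
Sense-strand counts of 16 Gm-named loci, with replicate 1 as circles and replicate 2 as squares joined by a line. The horizontal axis is logarithmic above 1 and linear from 0 to 1, and the dotted line marks 10 counts; 5 loci have both points at or right of it, and Gm47295 goes from 12 counts to 0.

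Below them, most loci again lay in exons of protein-coding genes or in snoRNAs. Gm24270, the copy of Gm23935 in an intron of the pseudokinase gene Peak1, had 6 and 17 counts. Gm47277 (chromosome 8, 13876091 to 13876184), in the snoRNA gene Gm24698 within Champ1, had 13 and 2 counts. Gm23634 in the 5′ UTR of Stmn1, a regulator of microtubules, had 5 and 5 counts. Gm22123 in the 3′ UTR of Purb, which encodes a nucleic acid-binding protein, had 2 and 6. Each of these 4 had at least 1 library under 10 counts.

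Further 5′ ends of genes followed. Gm23394 in the 5′ UTR of Ralgapa1 had 6 and 4 counts, and Gm27486 in the 5′ UTR of Sbno1 had 7 and 3. Gm25745 spans the 5′ UTR and coding sequence of Hsp90b1, a chaperone of the endoplasmic reticulum, and had 4 and 4 counts. Gm47302 spans the same boundary in Col3a1, the gene of a fibrillar collagen of connective tissue, and had 5 and 3. Gm47295 (chromosome 12, 69159518 to 69159596) lies in Rn7s1, a gene for the RNA of the signal recognition particle, and had 12 and 0 counts. Gm47284 in the snoRNA gene Gm24888 within Rpl27a had 2 and 4. The highest locus between annotated genes was Gm25732 (chromosome 4, 139338206 to 139338265) with 5 and 1 counts. It ends 38 bases before Gm24245, the third copy of the 57-base sequence, which itself had 0 counts in both libraries.

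The share of loci with a count differed by place in the annotation. Among 149 loci that overlap an exon of another gene on their own strand, 32 (21.5%) had a count, and they held 831 of the 970 counts (85.7%). Introns on the same strand held 187 loci, 8 of them (4.28%) with a count. A further 214 lay opposite to another gene, with 8 counted (3.74%), and 417 lay between genes, with 3 counted (0.719%). Those 3 held 12 counts. Places are those of GENCODE M21: RefSeq has a tRNA gene, n-TStga2, at 1 of the 3, Gm44456, with 3 and 0 counts. Among the other miRNA genes exons were highest too, with 194 of 273 (71.1%), followed by 341 of 606 (56.3%) in introns, 125 of 244 (51.2%) between genes and 46 of 112 (41.1%) opposite to a gene. Differences between these classes are given as counts of loci, without a test.

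**Figure D2:**
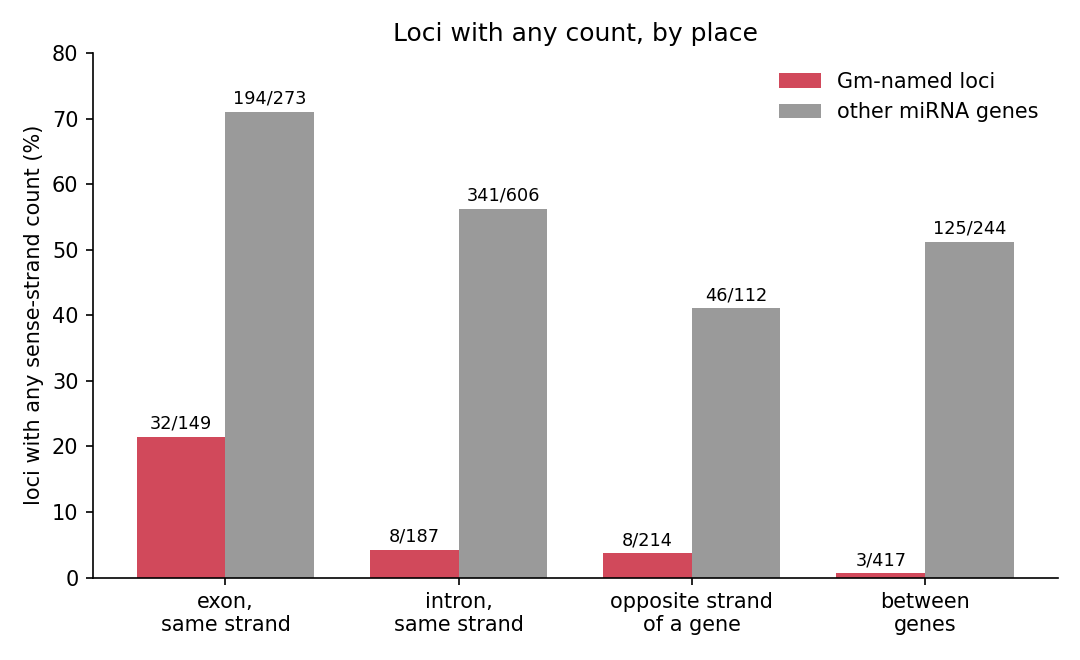
Percentage of loci with any sense-strand count by place in the annotation, for the Gm-named loci and all other miRNA genes, with the number counted over the number of loci above each bar. Among Gm-named loci the bar for exons on the same strand (32 of 149) is the highest and that for loci between genes (3 of 417) the lowest.

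The exon class divided by the kind of gene. A snoRNA, ribosomal RNA or other structural RNA gene of GENCODE M21 was present on the same strand at 21 loci, of which 7 had a count, with 377 counts together. SnoRNAs made up 365 of these, from 6 of 9 loci. The 4 loci in annotated ribosomal RNA genes had 0 counts, and likeness of the other loci to ribosomal RNA was not examined. Exons of protein-coding genes held another 68 loci, of which 24 had a count, with 453 counts. Of these, 15 of 32 loci that reach into a 5′ UTR had a count, against 3 of 10 that reach into a 3′ UTR. By contrast, 1 of 60 loci in exons of noncoding genes had a count, which was a single read at Gm24158. Without the 21 structural RNA loci, exons on the same strand still had the highest share, with 25 of 128 (19.5%).

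RefSeq lists a miRNA under the same symbol for 11 of the loci, and 4 of them had counts. After Gm23450 came Gm38670, the miR-9769 locus in an exon of a noncoding transcript of Hspb6, a small heat shock protein gene, with 9 and 1 counts. Gm24572, the miR-3618 locus in the 5′ UTR of the miRNA-processing gene Dgcr8, had 1 and 1. Gm23363, the miR-3154 locus opposite to an intron of Dnm1, the gene of a dynamin of synaptic vesicle uptake, had 0 and 2. The other 7, among them the loci of miR-1271, miR-1911 and miR-9b, had 0 counts in both libraries. Of the 7, the miR-6967 loci Gm27775 and Gm27740 are identical copies, so their zeros are no measure of expression.

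Much of the class shared sequence with other miRNA genes. Runs of 20 bases, about the length of a miRNA, were compared among all miRNA genes on either strand. A shared run was found for 777 of the 967 loci (80.3%), against 310 of the other 1235 genes (25.1%). For 228 loci every run was shared. Identical copies were fewer: 179 loci belonged to 39 such sets, and 827 distinct sequences were present. The largest set, with Gm22419, had 27 copies of 121 bases on 12 chromosomes, and all had 0 counts. The next sets, of 18, 16 and 15 copies, were most alike to Mir3471-2, Mir680-2 and Mir3471-2 and had 0 counts too.

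Loci that shared no run with another miRNA gene had counts more often. Copies elsewhere in the genome were not searched for. Among the 190 loci that shared no run, 31 (16.3%) had a count, and they held 778 of the 970 counts (80.2%). Where a part of the runs was shared, 17 of 549 (3.10%) had a count, and where every run was shared, 3 of 228 (1.32%). The same split of the other miRNA genes gave 581 of 925 (62.8%), 123 of 237 (51.9%) and 2 of 73 (2.74%). Reads that aligned to more than 1 place were set aside in the tables, 3176275 (27.0%) in replicate 1 and 1684373 (25.7%) in replicate 2, and how many of them fit these loci is not known. For the 228 loci a count of 0 is therefore no measure of expression. In the 549 loci with a part of the runs shared, reads from the shared part can be missing too. Within the 190 loci without shared runs, those in exons on the same strand had a count in 22 of 51 cases (43.1%), against 1 of 49 (2.04%) between genes.

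**Figure D3:**
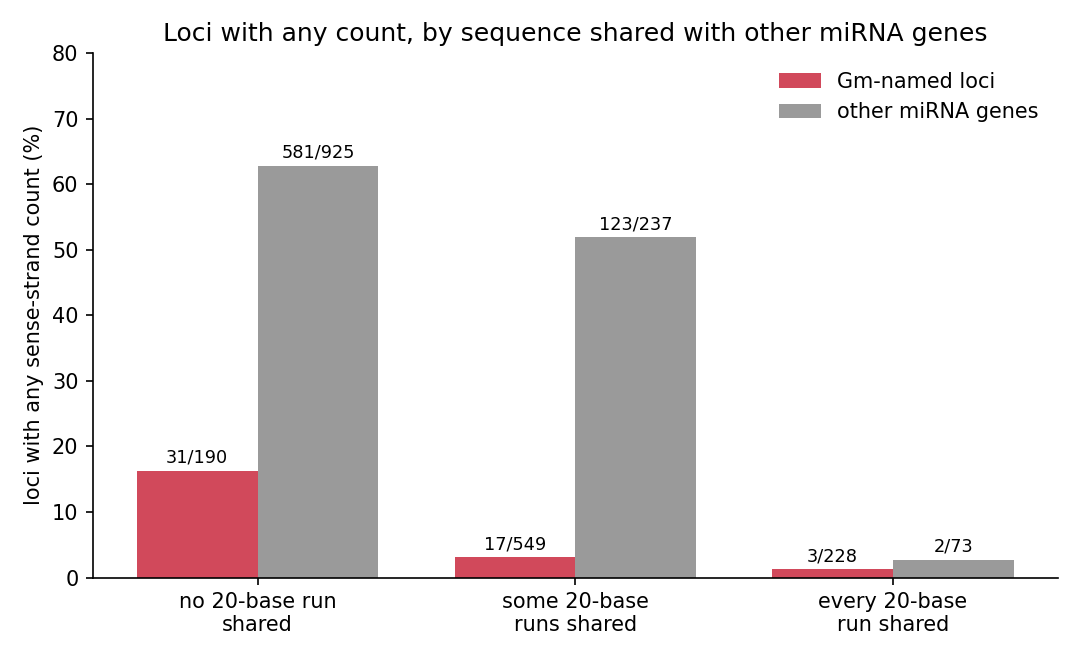
Percentage of loci with any sense-strand count by whether their 20-base runs recur in other miRNA genes, for the Gm-named loci and all other miRNA genes, with the number counted over the number of loci above each bar. In loci that share no run, 31 of 190 Gm-named loci and 581 of 925 other genes had a count, and where every run is shared both bars are near 0.

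Many loci resembled named miRNA genes. A match to a named precursor by blastn was found for 604 loci, of which 9 had a count, with 24 counts together. Among these, 1 locus with 3 counts matched n-TStga1, a gene with a tRNA name. Best matches fell most often on Mir466 precursors (114 loci, median identity 84.0%), Mir680 (99 loci, 97.3%), Mir3470 (76 loci, 92.1%) and Mir3471 (56 loci, 96.1%). All 345 loci of these 4 groups had 0 counts. A read that fits more than 1 of them would be set aside, so these zeros do not show that the loci are silent. The 363 loci without such a match held 946 of the 970 counts, from 42 loci. The chart of named precursors shows 1 counted locus among the 10 most frequent families, which was Gm24049 of the Mir690 group with 1 and 0 counts.

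**Figure D4:**
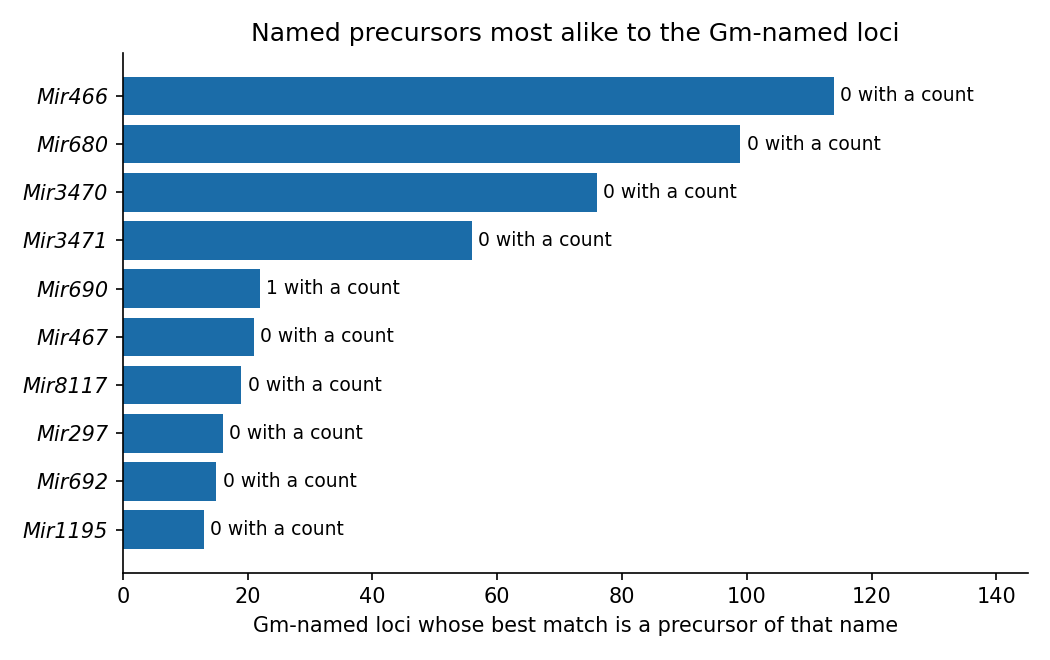
Number of Gm-named loci whose best blastn match among named precursors bears the name on the vertical axis, for the 10 most frequent names, with the number of loci that had any count at the end of each bar. The bars run from 114 loci for Mir466 to 13 for Mir1195, and only the Mir690 group has a counted locus.

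A whole mature miRNA of RefSeq was present in 238 loci, of which 6 had a count. The miR-680 sequence printed above occurred in 83 loci on 20 chromosomes, miR-3471 in 50 loci and miR-3470b in 44. The 177 loci with at least 1 of these 3 had 0 counts, as did the named genes Mir680-1, Mir680-2, Mir680-3, Mir3471-1, Mir3471-2 and Mir3470b, which each shared runs with 51 to 101 other miRNA genes. A read of such a mature miRNA fits many places and would be set aside with the reads that aligned to more than 1, so these zeros are no measure of its expression. Of 3 loci with miR-703, Gm26377 in the 3′ UTR of the elongation factor gene Eef1a1 had 0 and 3 counts, and Mir703 itself had 2 and 0.

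Predicted folds were weaker than in named genes. RNAfold gave the Gm-named loci a median minimum free energy of -0.319 kcal/mol per base, against -0.387 in genes numbered 1000 and above and -0.419 in genes numbered under 1000. Counted loci had a median of -0.362 and uncounted loci -0.318, with a median GC content of 59.7% and 51.3%. Median length was 102 bases, against 84 in genes numbered under 1000, and the longest locus had 442. Another miRNA gene lay within 10 kb of 106 loci (10.96%), against 320 of the 525 genes numbered under 1000 (61.0%).

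Both libraries were then compared locus by locus with a two-sided exact binomial test on all miRNA genes for which 1 of the libraries had 10 counts or more. A gene was called at a Benjamini-Hochberg adjusted p under 0.05 and a log2 ratio of CPM + 0.5 above 1 or below -1. The test compares 2 libraries, not conditions, and no difference has a replicate check. Of 404 genes tested, 74 were called, or 18.3%, and 39 of them (9.65% of those tested) were higher in replicate 2. Among the 967 Gm-named loci 8 could be tested and 4 were called, too few to set against that background. The median log2 ratio of replicate 2 over replicate 1 was 0.61 for these 8 and -0.05 for all tested genes. Gm24270, Gm47295 and Gm47277 entered that median through 1 library only, and Gm23935 and Gm24270 have the same sequence. No shift of the class is therefore read from it.

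Of the 4, 3 were higher in replicate 2. For Gm49346 the ratio was 4.38 (95% exact interval 2.26 to 8.83, adjusted p = 5.14e-06, exact test), and for Gm23935 it was 2.60 (1.63 to 4.17, adjusted p = 6.84e-05, exact test). The other calls, Gm24270 with 6 and 17 counts and Gm47295 with 12 and 0, passed the filter of 10 counts only through the library in which they were high. That filter favours the difference tested and its direction, so these 2 are given as values without a p. Gm24270 had a ratio of 6.65 (2.50 to 20.6) and Gm47295 a ratio of 0 (0 to 0.845). Taking the 0 as 3 counts, Gm47295 was 1.70-fold lower in replicate 2, without counting error in its 12 counts. Both loci were untested when 20 counts were needed. Gm26117 had a ratio of 1.80 (1.39 to 2.34), short of the size limit although its adjusted p was 2.06e-05 by the same exact test. Gm49347 had a ratio of 1.30 (1.01 to 1.65, adjusted p = 0.0581, exact test), and Gm23450 and Gm47277 were not called either.

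**Figure D5:**
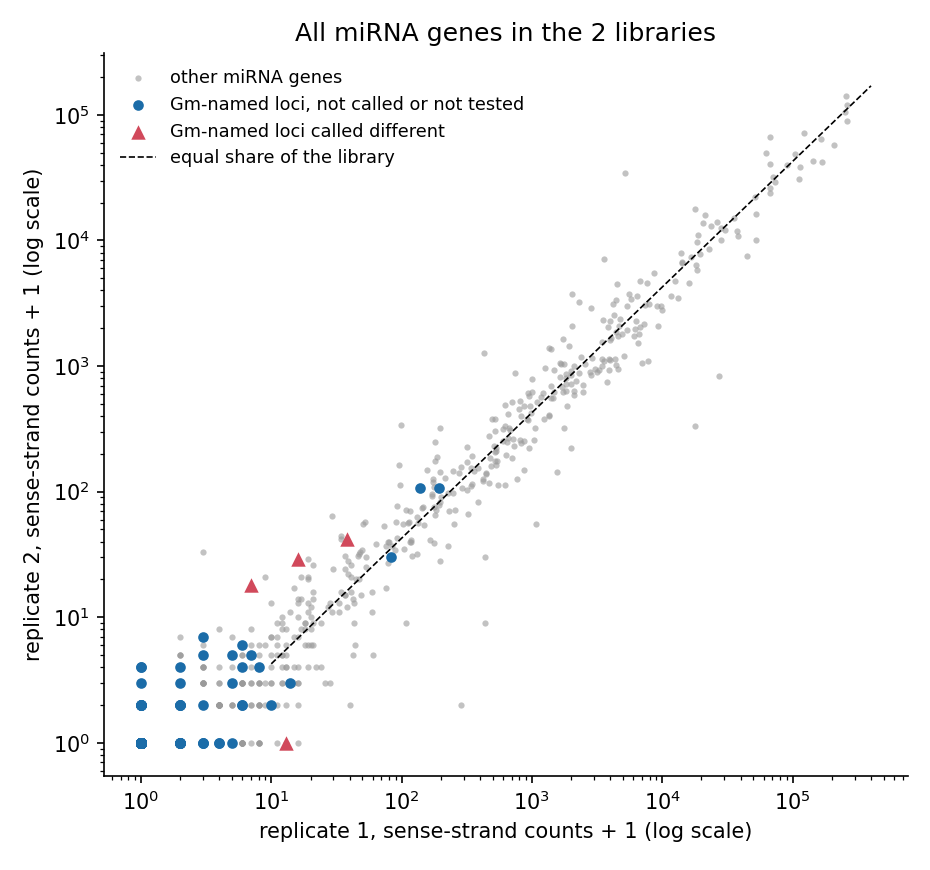
Sense-strand counts + 1 of every miRNA gene in replicate 1 and replicate 2, both axes logarithmic, with other miRNA genes in grey, Gm-named loci in blue and the 4 called loci as red triangles. The dashed line marks an equal share of both libraries; Gm24270, Gm49346 and Gm23935 lie above it, and Gm47295 lies at 0 in replicate 2.

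Among the 8 tested loci, the 4 called were also those that shared sequence with other miRNA genes, a feature noticed after their values were seen. Gm24270 and Gm47295 passed the filter only through their high library, and Gm23935 and Gm24270 have the same sequence. The contrast is therefore a description without a test. All 4 called loci shared 20-base runs with another miRNA gene, and 3 of them (Gm23935, Gm24270 and Gm47295) had no run of their own. The 4 tested loci that were not called shared none with miRNA genes, although 2 of them shared runs with transcripts of other genes. In Gm26117 70 of 76 runs, and in Gm47277 46 of 75, were found in no transcript of a gene elsewhere. The genome outside annotated transcripts was not searched. Among other tested genes, 21 of 90 with shared runs (23.3%) and 49 of 306 without (16.01%) were called. Gm49346 shared 64 runs with Gm47309, a snoRNA locus on chromosome 15 with 0 and 1 counts. Within the 57-base set of identical copies Gm23935 had 37 and 41 counts, Gm24270 had 6 and 17, and Gm24245 had 0 and 0. No read that lies within the sequence printed above can tell these 3 apart, and reads that aligned to more than 1 place were set aside. The level of each is therefore uncertain. How the counted reads came to be placed at 1 copy is not known and was not tested. Gm24187 had 2 and 1 counts and Gm23388 had 0 and 3.

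Markers of other cell types moved between the libraries as well. All 25 markers had a count in at least 1 library, 23 were tested, and 6 were higher and 5 lower in replicate 2. The liver miRNA Mir122 was at 1299 and 20602 CPM, and the red cell markers summed to 7248 and 595 CPM, mostly from Mir451a, while Mir486 of that list was at 12.4 and 19.6 CPM. Striated muscle markers summed to 1141 and 2694 CPM, mostly from Mir206 at 1130 and 2646 CPM. Each marker of that list had a higher CPM in replicate 2, but Mir1a-1 (1 and 1 counts) and Mir133a-1 (0 and 1) were near 0. Both share 20-base runs with other miRNA genes, and reads that aligned to more than 1 place were set aside. Their low counts are therefore no measure of expression. Kidney markers summed to 159 and 378 CPM, with Mir204 at 85.1 and 91.3. Epithelial markers summed to 523 and 188 CPM, with Mir205 at 44.2 and 63.4. Members of the red cell, kidney and epithelial lists thus did not all move together, although Mir486 (49 and 33 counts), Mir204 and Mir205 were not called. Neuroendocrine markers summed to 36759 and 46944 CPM, of which Mir375 gave 31129 and 42377, while Mir182 was called lower in replicate 2 (447.0 and 191.5 CPM) and Mir7b was at 4570 and 3754. Endothelial Mir126a was at 65222 and 83391 CPM, and smooth muscle and stroma at 42282 and 38444 CPM. Their part in the 4 calls was not tested. In whole tissue, fewer cells of a type and less RNA per cell cannot be told apart.

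At 5 Gm-named loci another miRNA gene lies on the opposite strand, and there the strand decided the value. Gm24083 had 0 sense-strand counts in both libraries, while its partner Mir191 had 19364 and 7811. Gm25927 had 0 and 0, with 26527 and 14086 for its partner Mirlet7e. Gm25301, opposite to Mir378a, had 0 and 0, with 51421 and 22258 for the partner. Gm24111, opposite to Mirlet7f-1, had 0 and 1 against 523 and 380, and Gm25641, opposite to Mir9-1, had 0 and 0 against 1 and 3. In all, 1 sense-strand count stood beside 142374 opposite-strand counts at these 5 loci, and the either-strand column gave them 0.

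A set of 19 loci lies opposite to histone genes, 15 of them on chromosome 13. None of the 19 had a sense-strand count. Among all 214 Gm-named loci placed opposite to a gene 8 (3.74%) had one, and 19 loci are too few to set apart from that share.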

How the data were processed

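The authors deposited 1 table of raw read counts per miRNA gene for each of 2 libraries, made on build mm10 with annotation release M21 per the file lists beside them; the aligner, its settings and the filters on reads are not given in the sources used here. Each table has 3 count columns (either strand, and each strand) and 4 summary rows, which name no gene and hold 66.3% of the reads in replicate 1 (11770895 reads) and 74.3% in replicate 2 (6557080 reads). These rows stayed out of library totals and tests. The third column, the sense strand, was used. It was chosen as the strand column with more counts.

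Levels are CPM over all sense-strand miRNA counts. Genes were placed with the GENCODE M21 annotation, counted from 1: a locus was put in an exon if it overlapped any exon of another gene on its strand, then in an intron, then opposite to a gene. Exon places rank first, so an exonic locus can be intronic in another transcript. All 967 loci had a transcript sequence. Folds came from RNAfold 2.7.2, matches from blastn 2.17.0 (word size 11, e-value 1e-5), scaling factors from edgeR 4.0.16 (TMM) and DESeq2 1.42.0 in R 4.3.3, and the rest from Python 3.11.15 with scipy 1.17.1. The exact test was tested on simulated data. With 1 group of 2 libraries, p-values measure counting error only.

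Loci were named by a rule: those detected, then the next in mean CPM up to 15 since fewer than 10 were detected, every locus called different, the highest of each kind of place, and those at the position limits. Others, such as Gm38670 and the loci with a partner on the other strand, were chosen after their values were seen. The members, lists and tests were chosen with earlier results of these data known. Alternatives were the other strand column, other thresholds, TMM and DESeq2 scaling, subsets of loci and 1 library left out.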

Additional observations from a re-analysis of the deposited data

Results flagged for a closer look

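Reads on the strand opposite to a Gm-named locus were not used above. Without a miRNA gene on that strand, 13 loci had such counts, and only Gm44297 (chromosome 13, 23534114 to 23534254), which lies opposite to a histone gene, exceeded the 3 counts that a count of 0 allows. It had 4 opposite-strand counts in replicate 1 and 1 in replicate 2, with 0 on its own strand in both.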

How the results depend on the processing

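The number of loci with any count was 51 and became 60 in the either-strand column, 31 among loci that share no 20-base run, 19 outside exons of the same strand, 25 with a count needed in both libraries and 27 with at least 3 counts summed. With 1 library left out it was 35 to 41. Detected loci, 5 as reported, were 3 without shared runs, 1 outside exons, 25 with at least 1 count in both libraries and 12 with at least 10 summed, and 6 to 7 with 1 library left out. The summed level of 188.5 CPM was 29.6 CPM outside exons of the same strand and 54.3 per 1000000 reads of all kinds. TMM and DESeq2 scaling gave 187.1 and 187.0 CPM. With 1 library left out it was 146.9 to 230.0 CPM. With 2 libraries this shift from the mean is always smaller than the SD, so it says nothing about stability.

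The 4 calls were the same loci under TMM, DESeq2 and the either-strand column. They were 2 (Gm23935 and Gm49346) with at least 20 counts and 0 among loci without shared runs, where 2 of 4 tested, Gm26117 and Gm49347, had an unadjusted p under 0.05 by the exact test. Gm47295 was lost with CPM + 5. At a log2 limit of 0.58, and with no limit, Gm26117 joined, and with at least 5 counts Gm22123 joined. Leaving 1 library out leaves no comparison. No paired analysis was possible because there is 1 group. Subsets of loci do not alter the level of a single locus and were not run for it. The share of repeats at each locus was not analysed here. At this depth, most loci rest on under 10 counts.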
